A study of Rattus norvegicus with 18 samples.

Results

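A set of 10 genes of branched-chain amino acid breakdown was measured by RNA-seq in rat kidney cortex. They are Bcat1 and Bcat2, Bckdha, Bckdhb, Dbt and Dld, Bckdk, and Ivd, Mccc1 and Mccc2. They were chosen by symbol, and 10 of 10 were rows of a table of 18420 genes and passed the filter on low values that left 13988 genes for testing. The 18 libraries form 3 groups of 6. The RYGB libraries came from diabetic ZDF fa/fa rats after Roux-en-Y gastric bypass surgery. The disease libraries came from diabetic ZDF fa/fa rats that served as the disease control. The healthy control libraries came from lean, non-diabetic ZDF fa/+ rats. ZDF is the Zucker diabetic fatty strain, in which fa is a mutant allele of the leptin receptor gene: fa/fa rats become obese and diabetic, and the fa/+ controls carry 1 copy of the allele. Age, sex, the time after surgery and any sham operation were not stated in the sources used here. The study asked what kidney disease does to gene expression in the cortex of this strain, and what the bypass does on top of it.

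Leucine, isoleucine and valine are broken down inside mitochondria, and kidney is among the tissues that do so. A transaminase (Bcat2 in mitochondria, Bcat1 in the cytosol) first removes the amino group. The resulting keto acids then pass the branched-chain keto acid dehydrogenase, a large complex built from E1 (the alpha subunit from Bckdha and the beta subunit from Bckdhb), E2 (Dbt) and E3 (Dld). This step is irreversible and is held in check by a kinase, Bckdk, which phosphorylates the E1 alpha subunit. A phosphatase, Ppm1k, removes the phosphate. In the leucine branch the next enzymes are isovaleryl-CoA dehydrogenase (Ivd) and methylcrotonyl-CoA carboxylase, whose subunits come from Mccc1 and Mccc2. Circulating branched-chain amino acids are known to be raised in obesity and type 2 diabetes.

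Reads in genes ranged over 12470525 to 42713246 in RYGB libraries, 8157977 to 37142922 in disease libraries and 8116638 to 34169198 in healthy control libraries. Healthy control replicate 4 and disease replicate 6 stood apart: over all tested genes, each correlated more with another group than with its own. The first had a mean correlation of -0.12 with its own group against -0.00 with RYGB libraries. The second had 0.00 with its own group against 0.07 with healthy control libraries. Disease replicate 5 also had a low mean with its own group, -0.02, against -0.05 with RYGB libraries. RYGB replicate 3 had -0.00 with its own group against -0.08 with disease libraries. The share of counted reads that fell outside annotated genes was 27.62 to 33.71% in RYGB libraries, 30.02 to 39.7% in disease libraries and 31.17 to 43.17% in healthy control libraries. Of 10 proximal tubule markers, 9 were in the table. Their summed levels were 346014 to 616101 in RYGB, 262147 to 663284 in disease and 347959 to 569059 in healthy control libraries. All 4 skeletal muscle markers were in the table too, so presence in it does not test the tissue label. Levels are read counts divided by the size factor of the library, called normalised reads here. They are not divided by gene length, so levels are compared between libraries and not between genes. In whole cortex, fewer cells of a type and less RNA per cell cannot be told apart.

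The promoters of the 5 genes that make up the 3 pairs found to vary together (below) are given first, because they show what these genes have and do not have in common at their starts. They run over 300 bases, 250 before to 50 after the gene's start, taken from RefSeq (build GRCr8) and written 5′ to 3′ on the strand of the gene. Capitals mark matches of 4 patterns of letters searched on both strands: the E-box CACGTG, the GC box GGGCGG, the CCAAT box CCAAT and the ETS core CGGAAG. No matches overlapped.
Bckdk, chr1:191945559-191945858, plus strand: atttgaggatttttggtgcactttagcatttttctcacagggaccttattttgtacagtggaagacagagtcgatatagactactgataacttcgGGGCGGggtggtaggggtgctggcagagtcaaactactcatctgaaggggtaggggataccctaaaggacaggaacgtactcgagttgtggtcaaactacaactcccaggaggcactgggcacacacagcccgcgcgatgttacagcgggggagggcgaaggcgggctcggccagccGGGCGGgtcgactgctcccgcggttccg
Ivd, chr3:126305334-126305633, plus strand: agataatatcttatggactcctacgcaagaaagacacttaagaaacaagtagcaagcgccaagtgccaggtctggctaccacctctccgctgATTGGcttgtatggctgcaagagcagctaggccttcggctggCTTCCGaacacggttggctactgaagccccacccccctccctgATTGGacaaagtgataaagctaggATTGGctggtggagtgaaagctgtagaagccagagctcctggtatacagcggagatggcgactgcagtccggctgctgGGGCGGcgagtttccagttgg
Bckdhb, chr8:93725027-93725326, plus strand: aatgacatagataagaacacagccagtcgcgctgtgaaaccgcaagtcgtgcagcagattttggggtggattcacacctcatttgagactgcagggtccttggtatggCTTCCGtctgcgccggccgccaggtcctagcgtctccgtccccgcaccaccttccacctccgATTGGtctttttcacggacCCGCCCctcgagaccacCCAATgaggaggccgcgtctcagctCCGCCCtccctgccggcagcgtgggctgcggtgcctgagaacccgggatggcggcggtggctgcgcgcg
Dbt, chr2:207166410-207166709, plus strand: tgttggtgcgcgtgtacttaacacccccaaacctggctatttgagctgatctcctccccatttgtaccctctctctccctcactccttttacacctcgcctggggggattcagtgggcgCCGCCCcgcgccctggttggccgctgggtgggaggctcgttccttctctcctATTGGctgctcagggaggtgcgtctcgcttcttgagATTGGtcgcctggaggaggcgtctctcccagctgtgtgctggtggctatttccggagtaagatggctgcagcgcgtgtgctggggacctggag
Dld, chr6:53652298-53652597, minus strand: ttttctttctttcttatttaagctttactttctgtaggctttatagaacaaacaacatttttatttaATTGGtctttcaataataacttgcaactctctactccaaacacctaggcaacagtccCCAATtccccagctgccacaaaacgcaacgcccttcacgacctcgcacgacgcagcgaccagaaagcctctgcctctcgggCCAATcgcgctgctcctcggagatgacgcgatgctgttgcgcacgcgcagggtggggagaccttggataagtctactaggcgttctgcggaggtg
The Bckdk window held 2 GC boxes and no other match. The Ivd window held 1 GC box, 3 CCAAT boxes and 1 ETS core, and the Bckdhb window held 2 GC boxes, 2 CCAAT boxes and 1 ETS core. The Dbt window held 1 GC box and 2 CCAAT boxes, and the Dld window held 3 CCAAT boxes. Of 33469 promoter windows in the same table, 33.1% held a GC box, 37.5% a CCAAT box, 16.6% an ETS core and 6.42% an E-box. The E-box letters were in none of the 9 windows available for 8 of the 10 genes. The GC content was 56% for Bckdk, 54.7% for Ivd, 63.7% for Bckdhb, 61% for Dbt and 49.3% for Dld, against a median of 51.7% over all windows.

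Across the pathway, 1 gene passed the test in 1 of the 3 comparisons: Bckdha, the E1 alpha subunit, was higher in RYGB than in healthy control cortex. In disease against healthy control, 0 of 10 genes were called by limma (1.61% of all 13988 genes were called), 1 gene had an unadjusted p below 0.05 (11.1% of all genes), and 0 were called by edgeR and 1 by DESeq2. In RYGB against disease, 0 of 10 were called by limma (3.95% of all genes), 2 had an unadjusted p below 0.05 (20.7% of all genes), and edgeR and DESeq2 called 0 each. In RYGB against healthy control, 1 of 10 was called by limma, as higher (4.44% of all genes were called, 2.46% as higher), as by edgeR and DESeq2, and 0 with quantile scaling, and 2 had an unadjusted p below 0.05 (26.2% of all genes). With 10 genes, 1 call is close to these shares. The median log2 fold change of the 10 genes was 0.06 in disease against healthy control, -0.05 in RYGB against disease and 0.03 in RYGB against healthy control, beside medians over all tested genes of 0.00158, -0.000866 and -0.0128. The comparisons share groups, so they are not independent of each other.

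**Figure D1:**
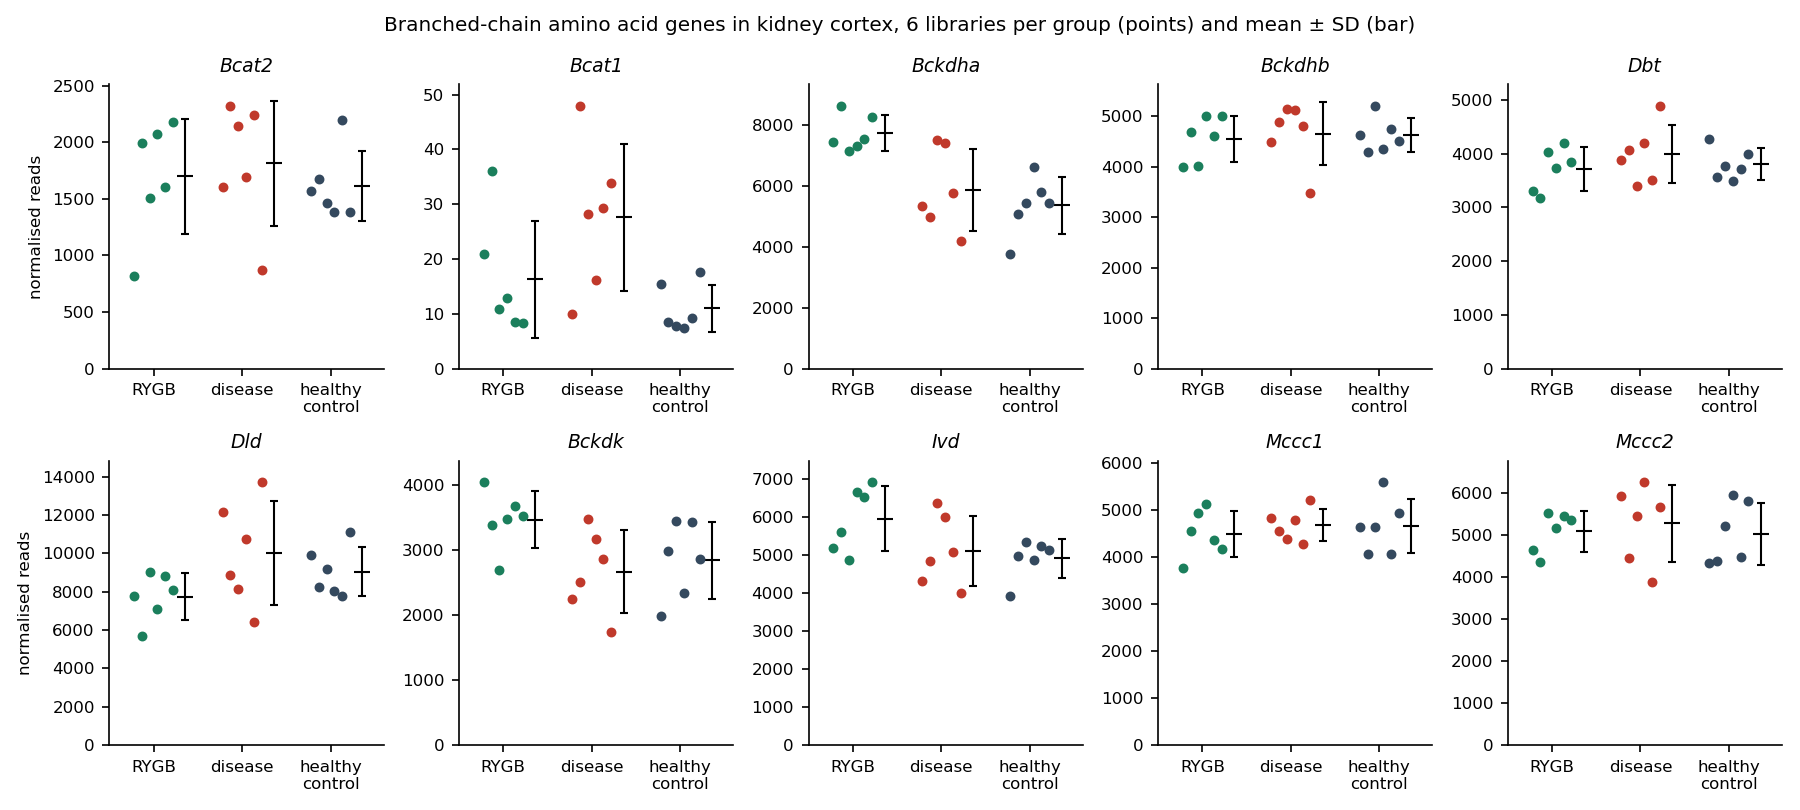
Normalised reads of each of the 10 genes (vertical axes, starting at 0) in the 6 RYGB, 6 disease and 6 healthy control libraries (points), with the group mean ± SD (bars). The RYGB libraries of Bckdha sit between 7152.6 and 8630.0, all above the healthy control libraries, while the points of the other 9 genes overlap between all groups.

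The E1 alpha subunit gene Bckdha had a lowest, median and highest level of 7152.6, 7485.7 and 8630.0 normalised reads in RYGB libraries. The same values were 4175.4, 5546.5 and 7496.4 in disease libraries and 3774.0, 5425.4 and 6620.8 in healthy control libraries. All 6 RYGB libraries lay above all 6 healthy control libraries; in this comparison the groups did not overlap, in either direction, for 3.22% of all tested genes. In contrast, 2 disease libraries, replicates 3 and 4, reached the RYGB range. The mean was 7718.5 ± 587 in RYGB, 5856.1 ± 1337 in disease and 5354.6 ± 937 in healthy control libraries (SD, n = 6 each). RYGB against healthy control gave a log2 fold change of 0.54 ± 0.14 (SE), or 1.46-fold with a 95% interval of 1.19 to 1.79, with an adjusted p of 0.0375 (limma, Benjamini-Hochberg over all tested genes). RYGB against disease gave 0.43 with an adjusted p of 0.0996 (limma), and disease against healthy control gave 0.12 with an adjusted p of 0.82 (limma).

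The Bckdha call did not hold under every setting. It was lost with quantile scaling (adjusted p 0.0521), with the share of reads outside genes as a covariate (0.231) and without the 3 libraries highest in that share (0.111, limma). Leaving out 1 library at a time kept the RYGB against healthy control log2 fold change at 0.45 to 0.61, but ended the call for 10 of the 18 libraries. These were RYGB replicates 1, 2, 4, 5 and 6 and healthy control replicates 1, 2, 3, 5 and 6, with an adjusted p of at most 0.102 (limma). Over all tested genes, the calls in this comparison numbered 621 in the main fit and 209 to 355 without 1 of these 10. They numbered 134 with the covariate, 201 without the 3 libraries and 810 with quantile scaling. Without healthy control replicate 4, which stood apart, the log2 fold change was 0.61 with an adjusted p of 0.0129, and without disease replicate 6 it was 0.54 with an adjusted p of 0.0221 (limma). RYGB against disease passed the threshold without disease replicate 3, with an adjusted p of 0.0454 (limma). Fibroblast and pericyte markers also moved with the bypass: 4 of 5 (Pdgfra, Col3a1, Col1a1 and Dcn) fell in RYGB against disease and 3 of 5 in RYGB against healthy control. None of the 5 was at 0 in all libraries. Of all tested genes, 2.1% fell in RYGB against disease and 1.98% in RYGB against healthy control. The proximal tubule marker Gatm (1 of 9) and the endothelial marker Cdh5 (1 of 4) also fell in RYGB against healthy control. The summed level of the fibroblast list was 4505.8 to 6619.6 in RYGB, 8253.0 to 11228 in disease and 5666.6 to 10549 in healthy control libraries. The part of these markers in the Bckdha difference was not tested.

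**Figure D2:**
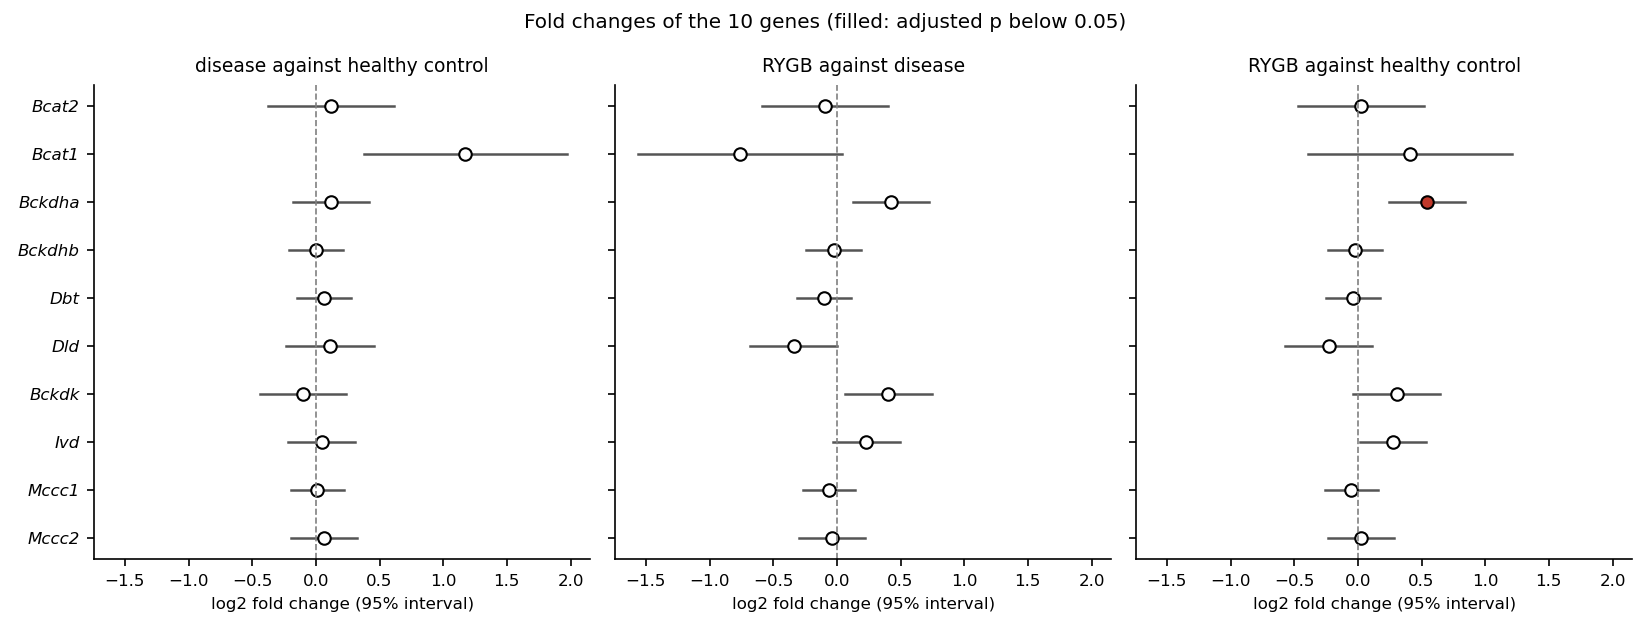
Log2 fold change with its 95% interval for the 10 genes (rows) in the 3 comparisons (panels), with filled points for an adjusted p below 0.05. The filled point is Bckdha in RYGB against healthy control, at 0.54, and the Bcat1 intervals are the widest of the 10 genes.

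The E1 beta subunit gene Bckdhb, whose protein pairs with E1 alpha in the complex, had 4007.0, 4649.4 and 5006.2 normalised reads (lowest, median, highest) in RYGB libraries. In disease libraries it had 3479.5, 4845.9 and 5143.3, and in healthy control libraries 4288.2, 4567.7 and 5217.2. The 3 groups covered nearly the same range. The log2 fold change was -0.02 in RYGB against healthy control (95% interval -0.24 to 0.19, adjusted p 0.895, limma). Within a library, the ratio of Bckdha to Bckdhb normalised reads was 1.46 to 1.86 in RYGB (mean 1.7 ± 0.15), 1.02 to 1.46 in disease (mean 1.25 ± 0.17) and 0.815 to 1.52 in healthy control libraries (mean 1.16 ± 0.23; SD, n = 6 each). RYGB replicate 4 was lowest in its group at 1.46, level with disease replicate 3 at 1.46 and below healthy control replicate 4 at 1.52. The ratio is a description and was not tested.

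The E2 gene Dbt, which encodes the acyltransferase core of the complex, varied little. It had 3168.9, 3792.7 and 4191.5 normalised reads (lowest, median, highest) in RYGB, 3405.6, 3970.7 and 4896.7 in disease and 3488.3, 3745.0 and 4282.3 in healthy control libraries. The E3 gene Dld encodes the dihydrolipoamide dehydrogenase that the pyruvate and oxoglutarate dehydrogenase complexes and the glycine cleavage system also use. It had 5681.8, 7932.8 and 9027.9 normalised reads in RYGB, 6414.5, 9820.2 and 13731 in disease and 7767.1, 8732.0 and 11100 in healthy control libraries. Disease libraries spread widest for Dld, with an SD of 2711 against 1237 in RYGB and 1285 in healthy control libraries, and the groups overlapped. Dld had a log2 fold change of -0.34 in RYGB against disease (95% interval -0.68 to 0.00, adjusted p 0.243, limma), which missed the threshold.

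Bckdk, the kinase that switches the complex off, had 2698.2, 3499.3 and 4046.7 normalised reads (lowest, median, highest) in RYGB libraries. In disease libraries it had 1734.6, 2690.6 and 3477.5, and in healthy control libraries 1985.1, 2925.8 and 3447.0. Groups overlapped, with RYGB replicate 3 low and disease replicates 3 and 4 high in their groups. RYGB against disease gave a log2 fold change of 0.40 ± 0.16 (SE), or 1.32-fold (95% interval 1.05 to 1.67), with an adjusted p of 0.165 (limma), and RYGB against healthy control gave 0.30 with an adjusted p of 0.235 (limma). Neither passed the threshold.

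Ppm1k, the phosphatase that switches the complex back on, comes from a list of 14 genes of regulation, transport and cofactors of the pathway, and it fell in disease cortex. It had 721, 1080.7 and 1784.2 normalised reads (lowest, median, highest) in RYGB libraries. In disease libraries it had 554.2, 825.2 and 1303.5, against 1288.5, 1598.9 and 2181.6 in healthy control libraries. Of the 6 disease libraries, 5 lay below every healthy control library, and disease replicate 6, one of the libraries that stood apart, lay just above the lowest of them. Disease against healthy control gave a log2 fold change of -0.99 ± 0.22 (SE), or 0.503-fold (95% interval 0.368 to 0.687), with an adjusted p of 0.0196 (limma). RYGB against disease gave 0.52 with an adjusted p of 0.178, and RYGB against healthy control gave -0.47 with an adjusted p of 0.172 (limma). Neither passed the threshold, and the RYGB range overlapped both others.

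The fall of Ppm1k was about as large under the other settings, but its call was less stable. The deviations of same-numbered disease and healthy control libraries were positively correlated, and the main fit left the replicate number out. With the replicate number as a block in the fit of all 3 groups the adjusted p was 0.0581 (limma). With the block in the disease and healthy control groups alone it was 0.0202 (limma). Leaving out healthy control replicate 2 or 3 or disease replicate 3 or 4 ended the call, with an adjusted p of 0.0503 to 0.066 (limma) and a log2 fold change of -0.97 to -0.88. Over all tested genes, the calls in this comparison numbered 225 in the main fit and 126 to 145 without 1 of these libraries. Without disease replicate 6 the log2 fold change was -1.13 with an adjusted p of 0.00628, and without healthy control replicate 4 it was -1.03 with an adjusted p of 0.021 (limma). Among the marker lists of renal and other cell types, that of the thick ascending limb was the one with calls in this comparison. Of its 3 tested markers, 2 (Umod and Cldn10) fell in disease, beside 1.03% of all tested genes. The summed level of the list was 24295 to 72653 in disease and 75159 to 99549 in healthy control libraries, and none of its markers was at 0 in all libraries. The part of these markers in the Ppm1k difference was not tested.

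**Figure D3:**
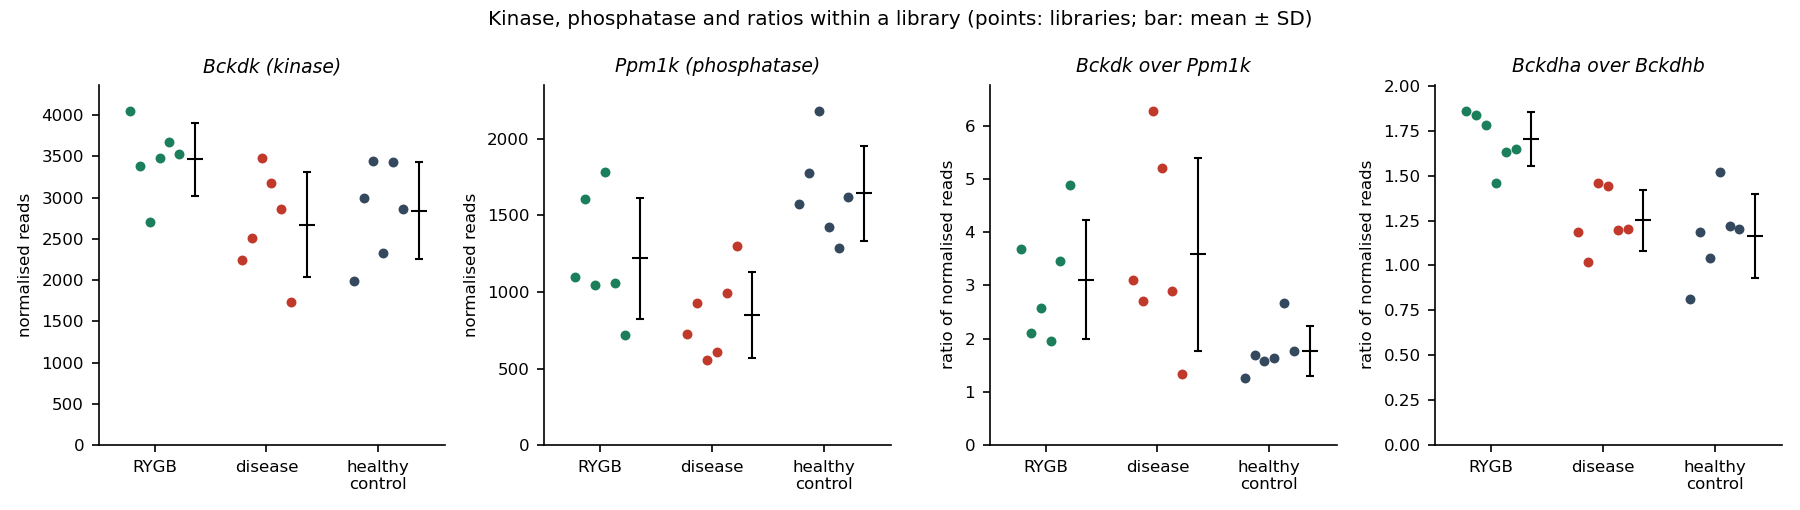
Normalised reads of the kinase gene Bckdk and the phosphatase gene Ppm1k, and ratios within a library (vertical axes, starting at 0), in RYGB, disease and healthy control libraries (points), with mean ± SD (bars). Ppm1k was 554.2 to 1303.5 in disease against 1288.5 to 2181.6 in healthy control libraries, and the ratio of Bckdk to Ppm1k reached 6.27 in a disease library.

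The ratio of kinase to phosphatase normalised reads within a library was 1.95 to 4.89 in RYGB (mean 3.11 ± 1.1), 1.33 to 6.27 in disease (mean 3.59 ± 1.8) and 1.26 to 2.66 in healthy control libraries (mean 1.76 ± 0.47; SD, n = 6 each). Disease libraries held both the highest ratios, 6.27 and 5.22 in replicates 3 and 4, and 1 of the lowest, 1.33 in replicate 6. The ratio of Bckdk to Bckdha, the gene of the subunit that the kinase phosphorylates, was 0.377 to 0.543 in RYGB, 0.415 to 0.505 in disease and 0.352 to 0.634 in healthy control libraries, and the 3 ranges overlapped. These ratios are descriptions and were not tested.

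The transaminase genes differed in how they varied. Bcat2, the mitochondrial enzyme, had 820.1, 1803.6 and 2180.9 normalised reads (lowest, median, highest) in RYGB, 867.3, 1919.0 and 2325.2 in disease and 1381.8, 1515.6 and 2198.8 in healthy control libraries. RYGB replicate 1 and disease replicate 6 were the low libraries, and no comparison exceeded the spread (adjusted p 0.856 in RYGB against disease, limma). Bcat1, the cytosolic enzyme, was barely detected, with 3 to 53 reads per library. It had 8.384, 11.94 and 36.03 normalised reads in RYGB, 9.966, 28.75 and 48.01 in disease and 7.359, 8.825 and 17.61 in healthy control libraries. Of 6 disease libraries, 4 lay above every healthy control library, and replicates 1 and 4 did not. Disease against healthy control gave a log2 fold change of 1.17 ± 0.38 (SE) with an adjusted p of 0.18 (limma), which missed the threshold. DESeq2 on the recovered reads gave 1.36 with an adjusted p of 0.0356, and edgeR an adjusted p of 0.0973, so the call depended on the tool. The pseudocount of 1 lowers fold changes at such levels.

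The leucine branch beyond the complex showed no call. Ivd, which oxidises isovaleryl-CoA, had 4862.0, 6057.2 and 6908.1 normalised reads (lowest, median, highest) in RYGB, 4003.9, 4961.0 and 6353.4 in disease and 3914.3, 5039.7 and 5331.6 in healthy control libraries. Of 6 RYGB libraries, 4 exceeded all healthy control libraries, and RYGB against healthy control gave a log2 fold change of 0.27 (95% interval 0.01 to 0.54) with an adjusted p of 0.173 (limma). Mccc1, the biotin-carrying subunit of the carboxylase, had 3768.9 to 5125.6 normalised reads in RYGB, 4262.4 to 5203.9 in disease and 4051.2 to 5585.6 in healthy control libraries. Mccc2, its partner subunit, had 4341.3 to 5518.8 in RYGB, 3886.3 to 6250.4 in disease and 4317.4 to 5943.8 in healthy control libraries. For Mccc1, Mccc2, Bckdhb and Dbt together, the 95% intervals of the log2 fold change lay within -0.31 to 0.22 in RYGB against disease, -0.26 to 0.28 in RYGB against healthy control and -0.21 to 0.32 in disease against healthy control. Each of these intervals held 0, so differences within a gene's own interval were not excluded with 6 libraries per group.

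Of the further enzymes of the pathway, 16 genes of the later steps of valine, isoleucine and leucine breakdown and propionate handling were tested. In disease against healthy control, RYGB against disease and RYGB against healthy control, 0 were called by limma (1.61, 3.95 and 4.44% of all tested genes). Unadjusted p-values below 0.05 were found for 1, 2 and 2 of them in these comparisons (11.1, 20.7 and 26.2% of all tested genes). With 16 genes, 0 calls is close to the shares called. Aldh6a1, the methylmalonate semialdehyde dehydrogenase of valine breakdown, had 29572 to 43386 normalised reads in RYGB, 19484 to 37132 in disease and 26708 to 38554 in healthy control libraries, with a log2 fold change of 0.44 in RYGB against disease (adjusted p 0.116, limma). Oxct1, which activates ketone bodies as CoA esters, had 13449 to 20114 normalised reads in RYGB, 17159 to 29939 in disease and 13129 to 34987 in healthy control libraries. It gave -0.71 in RYGB against healthy control with an adjusted p of 0.0569 by limma, against 0.0331 by edgeR and 0.00569 by DESeq2. Healthy control replicate 4 held the low value, and without it the log2 fold change was -0.92 with an adjusted p of 0.00136 (limma). Echs1 was listed at 0 to 9.581 normalised reads, below the filter, and was not tested. Whether this low count reflects its expression was not tested either. No row carried the symbol Pcca.

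Regulation, transport and cofactor genes other than Ppm1k gave no call, so 1 of 14 fell in disease against healthy control (1.03% of all tested genes fell). In RYGB against disease and RYGB against healthy control, 0 of 14 were called by limma (3.95 and 4.44% of all tested genes). Unadjusted p-values below 0.05 were found for 2, 4 and 5 of the 14 in disease against healthy control, RYGB against disease and RYGB against healthy control. Over all tested genes these shares were 11.1, 20.7 and 26.2%. Among 14 genes of the related pyruvate and oxoglutarate dehydrogenase complexes, 1 fell in both RYGB comparisons and 0 were called in disease against healthy control (limma). Of these 14 genes, 3, 5 and 5 had an unadjusted p below 0.05 in the same 3 comparisons (limma), beside the same shares of all tested genes. Of all tested genes, 2.1% fell in RYGB against disease and 1.98% in RYGB against healthy control. The gene that fell was Pdk3, a kinase that switches off the pyruvate dehydrogenase complex as Bckdk does its own. Pdk3 had 552.3, 586.1 and 649.8 normalised reads (lowest, median, highest) in RYGB, 684.5, 778.8 and 864.5 in disease and 583.8, 844.8 and 898.5 in healthy control libraries. All RYGB libraries lay below all disease libraries, which held for 2.6% of all tested genes in either direction, and healthy control replicate 4 fell inside the RYGB range. The log2 fold change was -0.38 in RYGB against disease (adjusted p 0.0407) and -0.43 in RYGB against healthy control (adjusted p 0.0245, limma). Leaving out 1 library at a time ended the first call for 12 of 18 libraries and the second for 6, with adjusted p-values up to 0.101 and 0.0675 (limma). Without disease replicate 6 the first had an adjusted p of 0.0527, and without healthy control replicate 4 it had 0.00886 and the second 0.000741 (limma). The first call was also lost with TMM scaling (adjusted p 0.0543), with the replicate block (0.0874), with the share of reads outside genes as a covariate (0.13) and without the 3 libraries highest in that share (0.224). The second was lost with the block (0.053), with the covariate (0.11) and without those libraries (0.0745, limma). Cell type markers also moved in RYGB against disease: 2 of 3 of the thick ascending limb (Umod and Cldn10) and 1 of 9 of the proximal tubule (Miox) rose, while 4 of 5 of fibroblasts and pericytes, 1 of 4 of the distal tubule and collecting duct (Aqp3) and 1 of 3 of adipocytes (Adipoq) fell. In this comparison 3.95% of all tested genes were called, in either direction. The summed thick ascending limb level was 46299 to 119917 in RYGB and 24295 to 72653 in disease libraries. The part of these markers in the Pdk3 difference was not tested.

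The citrate cycle genes were a further list, and whether they follow the mitochondria as a whole was not tested. In disease against healthy control, RYGB against disease and RYGB against healthy control, 0 of the 11 tested were called by limma (1.61, 3.95 and 4.44% of all tested genes). In these comparisons 0, 1 and 1 of the 11 had an unadjusted p below 0.05 (11.1, 20.7 and 26.2% of all tested genes). The succinate dehydrogenase subunit Sdha had 19901 to 26745 normalised reads in RYGB, 18352 to 28629 in disease and 21388 to 26603 in healthy control libraries. The median log2 fold change of this list was 0.15 in disease against healthy control, -0.06 in RYGB against disease and -0.00 in RYGB against healthy control.

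Within the groups, the 10 genes varied together only in part. Each gene's log2 level was taken as its deviation from the group mean in all 18 libraries, and 45 pairs were tested by permuting libraries within groups 100000 times. In all, 3 pairs passed with both Pearson's r and Spearman's rho after Benjamini-Hochberg adjustment, all 3 positive. Other pairs passed with r alone. Of these, Bckdha with Dbt (r = -0.60, adjusted permutation p 0.049) and Bckdk with Mccc1 (r = -0.59, adjusted permutation p 0.046) were negative. The positive ones were Bckdha with Ivd (r = 0.75) and Bckdk (0.69), Bckdhb with Bcat2 (0.77) and Bckdk (0.64), and Mccc2 with Dld (0.67) and Mccc1 (0.60). The share of pairs that would pass among other genes was not computed, so 3 of 45 has no background to be set against. The kinase gene Bckdk and Ivd had r = 0.79 (permutation p 0.00017, adjusted 0.0076) and rho = 0.73 (permutation p 0.0011, adjusted 0.024), with r = 0.67 after leaving out the 2 libraries farthest from the median. The E2 and E3 genes Dbt and Dld had r = 0.80 (permutation p 0.0006, adjusted 0.012) and rho = 0.81 (permutation p 0.00038, adjusted 0.017), with r = 0.69 without the farthest libraries. Bckdhb and Ivd had r = 0.76 (permutation p 0.00077, adjusted 0.012) and rho = 0.75 (permutation p 0.0016, adjusted 0.024), with r = 0.69 without them. In the promoter windows printed above, Dbt and Dld share the CCAAT box, Bckdk and Ivd share the GC box, and Bckdhb and Ivd share the GC box, the CCAAT box and the ETS core. Printed windows of pairs that did not pass share matches too. Dbt shares the GC box and the CCAAT box with Ivd (r = -0.30) and with Bckdhb (r = -0.33). Dld shares the CCAAT box with Bckdhb (r = -0.46). The Mccc1 window, of a gene in none of the 3 pairs, also holds a GC box and CCAAT boxes. These matches are descriptions of the letters.

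**Figure D4:**
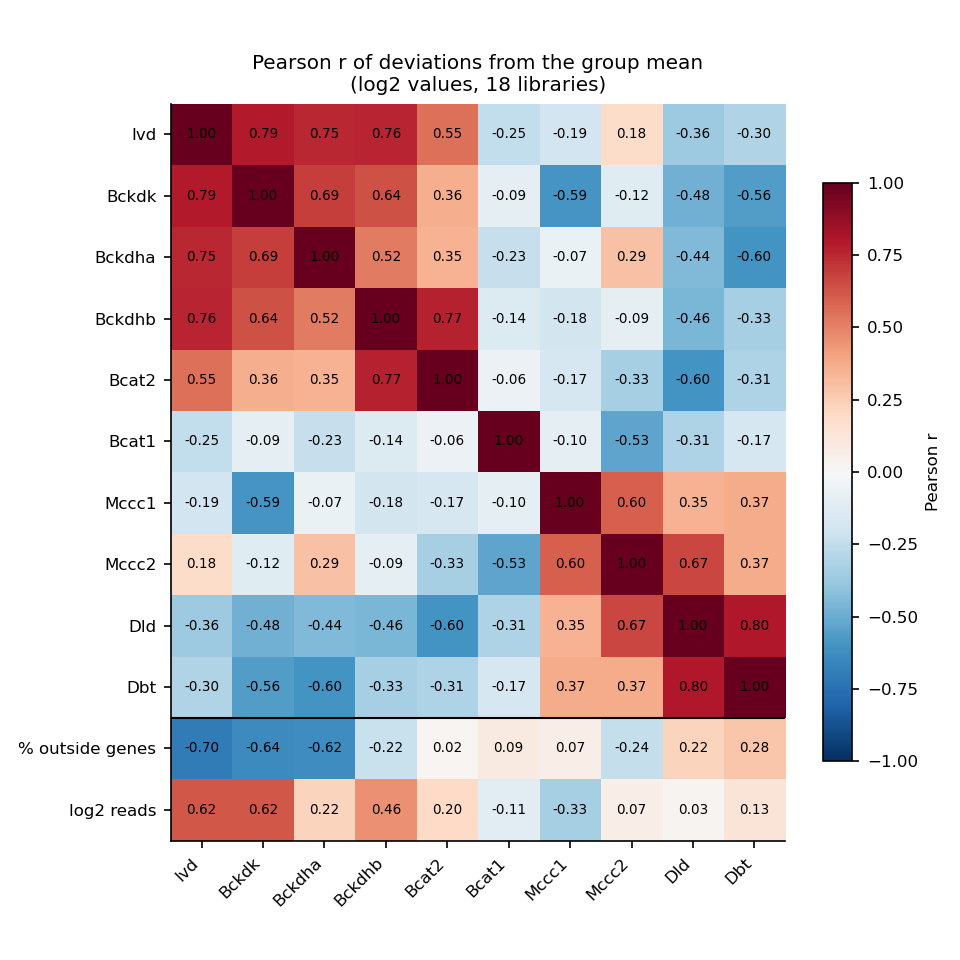
Pearson r between the deviations from the group mean (log2 values, 18 libraries) for each pair of the 10 genes, from negative to positive on the colour scale. Dbt with Dld (0.80), Bckdk with Ivd (0.79) and Bckdhb with Ivd (0.76) passed both adjusted permutation tests.

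Measures of library quality were set against the 10 genes. Across the 18 libraries, again as deviations within groups, 20 relations of the 10 genes with the share of reads outside genes and with the log2 number of reads in genes were tested, and 0 passed with both coefficients. The closest was Ivd with the outside-gene share, at r = -0.70 (permutation p 0.0034, adjusted 0.068) and rho = -0.74 (permutation p 0.0016, adjusted 0.032), with r = -0.58 without the 2 farthest libraries. With the log2 number of reads in genes, Ivd had r = 0.62 and rho = 0.67 and Bckdk had r = 0.62 and rho = 0.66 (adjusted permutation p 0.082 for both r and 0.041 for both rho), so both genes of the Bckdk and Ivd pair tended to be higher in deeper libraries. With the outside-gene share, Bckdk had r = -0.64 (adjusted permutation p 0.082) and rho = -0.69 (adjusted permutation p 0.041), and Bckdha had r = -0.62 and rho = -0.59 (adjusted permutation p 0.14 and 0.12). The share was lowest in RYGB libraries, with a median of 30.39% against 32.8% in disease and 33.38% in healthy control libraries. With the share as a covariate, Bckdha in RYGB against healthy control had a log2 fold change of 0.37 and an adjusted p of 0.231 (limma). Without the 3 libraries highest in that share (healthy control replicate 1 and disease replicates 1 and 2) it had 0.45 and an adjusted p of 0.111 (limma). Ppm1k in disease against healthy control kept -0.99 with the covariate (adjusted p 0.0224), and without those libraries it had -1.004 with an adjusted p of 0.121 (limma). Both settings were chosen after the data were seen.

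**Figure D5:**
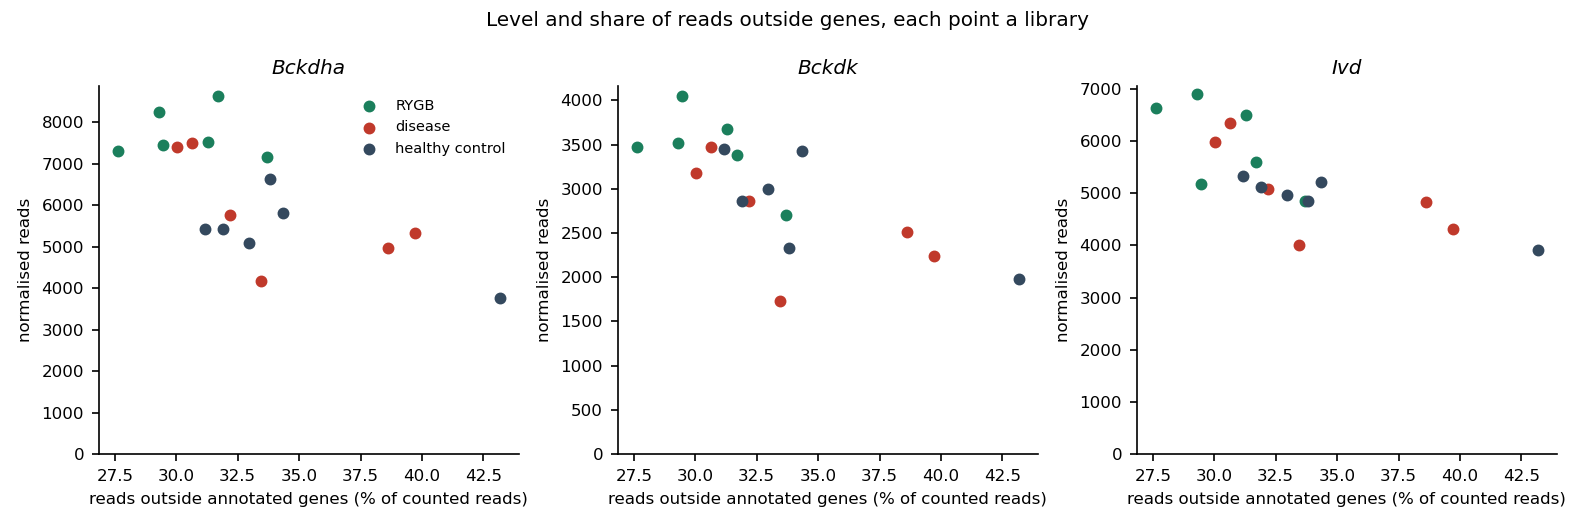
Normalised reads (vertical axes, starting at 0) against the share of counted reads outside annotated genes (horizontal axes, %) in RYGB, disease and healthy control libraries, each point a library. The RYGB points lie at 27.62 to 33.71%, and healthy control replicate 1, at 43.17%, has the lowest Bckdha level at 3774.0.

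The genes next to Bckdha were read for reads it might share. In the RefSeq annotation of GRCr8, the model of Exosc5, a subunit of the RNA exosome, overlaps Bckdha on chromosome 1, and B3gnt8, a glycosyltransferase gene, comes before it. Exosc5 had 773.7 to 1152.1 normalised reads in RYGB against 429.4 to 794.8 in healthy control libraries, with a log2 fold change of 0.62 and an adjusted p of 0.0776 (limma). B3gnt8 was barely detected, with 1 to 30 reads per library. It had 13.23 to 20.76 normalised reads in RYGB against 4.696 to 12.61 in healthy control libraries, with no overlap. Its log2 fold change was 0.96 with an adjusted p of 0.124 (limma). Neither passed this threshold, but both did under some other settings. Exosc5 had an adjusted p of 0.0375 with DESeq2, 0.0698 with edgeR and 0.0208 with limma on the compared groups alone, and passed without healthy control replicate 4 (0.0499), disease replicate 3 (0.045) or RYGB replicate 3 (0.0449, limma). B3gnt8 had an adjusted p of 0.0645 with DESeq2 and 0.0856 with edgeR, and passed in limma with quantile scaling (0.0494) and on the compared groups alone (0.0356). Reads counted as ambiguous, 0.0695 to 0.114% of counted reads, were held in a row that names no gene. The strand setting of the counting was not stated, and the build named for it was Rnor 5.0, not GRCr8. Whether any counted reads of Bckdha came from Exosc5 could therefore not be told. Over all 18 libraries, the gene whose log2 level was most like that of Bckdha was Nob1, with r = 0.961 and rho = 0.928 (r = 0.935 within groups), as a description chosen as the highest among all tested genes with a symbol.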

How the data were processed

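Kidney cortex RNA of 18 rat libraries was measured by RNA-seq, with a stranded kit for polyadenylated RNA per the labels' protocols. Each deposited value is the signal of a gene in a library: the authors divided the read counts of each library by its size factor. FastQC 0.11.2, MultiQC 0.9, HTSeq 0.6.1p1, DESeq2 and the build Rnor 5.0 are named in the submitters' processing notes. No aligner, annotation release or strand setting of the counting was given in the sources used here. Of the deposited rows, 3 name no gene. They hold reads outside genes (27.62 to 43.17% of counted reads), reads that align repeatedly (13.46 to 18.13%) and ambiguous ones (0.0695 to 0.114%), which stayed out of tests. Of 18420 gene rows, 2364 carry an Ensembl identifier only. Values were whole multiples of 1 read for at least 99.9837% of genes in every library (tolerance 0.01 reads), so whole reads were recovered.

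Values were tested as log2(value + 1) with limma 3.58.1 under R 4.3.3, allowing a mean-variance trend. The 13988 genes that reached 10 normalised reads in 6 or more libraries entered 1 fit of 3 group means (15 residual degrees of freedom). The p-values are two-sided, adjusted by Benjamini-Hochberg over all genes of a comparison, with calls made below 0.05. Fold changes on the log2(value + 1) scale understate low genes. Alternatives were TMM and quantile scaling, other pseudocounts and filters, the compared groups alone, edgeR 4.0.16, DESeq2 1.42.0, a replicate block and each library left out. Groups and replicate numbers came from the sample titles. The labels do not say that each library came from its own animal, so p-values measure the spread between libraries. Libraries of a group all differed by more than sampling noise (chi-square of 22.53 or more per degree of freedom).

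Replicate numbers recur in each group. The deviations of same-numbered disease and healthy control libraries had r = 0.13 to 0.32, above 0.1 for all 6 pairs. Differently numbered libraries of these groups had r = -0.54 to 0.39, with a median of -0.02. The labels do not state a pairing. The main fit left the replicate number out, so its p-values are unpaired, and the block was an alternative. For same-numbered libraries, r was -0.56 to 0.31 in RYGB against disease and -0.31 to 0.014 in RYGB against healthy control.

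The 10 genes and the gene and marker lists were chosen with earlier results of these data known. Named genes are all 10, every called gene of the further lists, the 2 highest genes of a list without calls, the gene most like a called one, and the neighbours of Bckdha, which were added after its call was seen. A gene of this rule is not reported here. Intervals cover 95%. Promoters are RefSeq windows of GRCr8, a build other than that of the counts.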

Additional observations from a re-analysis of the deposited data

Results flagged for a closer look

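In 51 sets of 6 libraries (a named gene in a group), 3 held a library whose gap to its nearest neighbour, divided by the range of the group, exceeded Dixon's 95% critical value for 6 values. Chance alone flags about 1 in 20 such sets, so 3 of 51 is close to that share. Bcat2 had 2198.8 normalised reads in healthy control replicate 5, against 1675.7 in the next library. Ivd had 3914.3 in healthy control replicate 1, below the next library at 4859.5, and this library had the highest share of reads outside genes, 43.17%. Oxct1 had 13129 in healthy control replicate 4, below the next library at 28440, and this library stood apart from its group over all tested genes. The part of these library measures in the values was not tested.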

How the results depend on the processing

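Of the counts of called genes among the 10, the count in disease against healthy control was 1 with DESeq2 (Bcat1) and 0 otherwise, and that in RYGB against healthy control was 0 with quantile scaling, with the outside-gene share as a covariate and without the 3 libraries highest in that share. Leaving out 1 library gave 0 to 0 calls in disease against healthy control, 0 to 1 in RYGB against disease and 0 to 1 in RYGB against healthy control. Bckdha in RYGB against healthy control had an adjusted p of 0.0521 with quantile scaling, 0.0337 with edgeR and 0.00787 with DESeq2. With the replicate block, 0, 0 and 1 of the 10 genes were called in disease against healthy control, RYGB against disease and RYGB against healthy control, and Bckdha had an adjusted p of 0.0474 in the last. The block ended the calls of Ppm1k (0.0581) and of Pdk3 (0.0874 in RYGB against disease and 0.053 in RYGB against healthy control), and changed no other call of a named gene. Replicate numbers were not taken to pair RYGB libraries with the others. The minimum value of 50 left no value for Bcat1.

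Signs changed where the log2 fold change was near 0, and the cause was not tested. In disease against healthy control, Bckdhb was -0.004 with TMM scaling, -0.005 with quantile scaling, -0.004 with the covariate and -0.009 without the 3 libraries, Mccc1 was -0.002 with edgeR and Sdha -0.022 without the 3 libraries. In RYGB against healthy control, Sdha was 0.005 with TMM scaling, 0.014 with quantile scaling, 0.009 with edgeR and 0.003 with DESeq2. Mccc2 was -0.004 with quantile scaling, -0.030 with the covariate and -0.016 without the 3 libraries, and Dbt was 0.010 with the covariate. Over libraries left out in turn, disease against healthy control ranged over -0.03 to 0.083 for Bckdhb, -0.197 to 0.017 for Bckdk, -0.024 to 0.109 for Ivd, -0.027 to 0.066 for Mccc1 and -0.005 to 0.123 for Sdha. RYGB against disease ranged over -0.107 to 0.01 for Bckdhb, -0.291 to 0.103 for Bcat2, -0.123 to 0.014 for Mccc2 and -0.127 to 0.005 for Sdha. RYGB against healthy control ranged over -0.053 to 0.011 for Bckdhb, -0.075 to 0.006 for Dbt, -0.061 to 0.221 for Bcat2, -0.091 to 0.004 for Mccc1, -0.016 to 0.077 for Mccc2 and -0.04 to 0.045 for Sdha.

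Counting error weighs most on B3gnt8, which had 1 to 30 reads per library, and on Bcat1, which had 3 to 53.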
